A study of Mus musculus with 6 samples.

Results

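The Schlafen genes Slfn8, Slfn9, Slfn5 and Slfn2 were described in microglia and in the other cell classes of the hippocampus of old mice. These 4 genes are among 9 genes with a Slfn or Slfnl symbol, and among 31253 genes in all, in the deposited counts. They were selected by measured values of the same libraries, because Slfn8 and Slfn9 had been found lower in microglia after sevoflurane. Their difference between the groups in microglia is therefore given as a description, with no test. Slfn2 and Slfn5 were taken as members of the same gene cluster.

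The Sevoflurane group held 3 libraries from mice exposed to 2% sevoflurane, a volatile anaesthetic, over 6 h, and the Control group 3 libraries from mice kept in air. The hippocampus was taken 24 h later, per the labels, which call the animals elderly and give 6 mice in all, with no strain, genotype, sex or age in months. All 6 tissues were digested with collagenase and cryopreserved as cell suspensions before library preparation. The libraries count molecules by unique molecular identifiers (UMIs) placed near the 3′ end of each captured transcript, and the labels do not tie each library to its own mouse.

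Schlafen proteins share an N-terminal core domain, and the long members, which include Slfn5, Slfn8 and Slfn9, also carry a helicase-like part that the short member Slfn2 lacks. In mammals many of them are induced by type I interferon in immune cells. Several act on RNA: human SLFN11 cleaves transfer RNA and limits the translation of viral proteins, and mouse Slfn2 binds transfer RNA and is needed to keep T cells quiescent. Microglia are the resident macrophages of the brain and respond to interferon.

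The members lie side by side on mouse chromosome 11. By the GENCODE annotation of GRCm38, matched to the files by gene ID, Slfn5 spans 82951349 to 82964840 and Slfn2 spans 83065112 to 83070678, both on the plus strand. Between them on the minus strand lie Slfn9, at 82978390 to 82991830, and Slfn8, at 83002158 to 83020810. Slfn8 and Slfn9 are the closest relatives. Their longest coding sequences, of 910 codons each, were identical at 92.7% of 2730 aligned bases, against 64.5% to 68.1% for the other pairs. The last 500 bases of their longest transcripts, where a 3′ library takes its reads, were identical at 61.3% of aligned bases. That was the lowest of the 6 pairs, which ran from 61.3% to 62.8%. Slfn8 has 6 transcripts and Slfn9 has 3, and only the longest of each was compared. These carry 924 and 2789 bases after the coding part, in that order. The comparison therefore does not tell whether reads of the 2 genes can be told apart. How reads that match both genes were counted is not given in the sources used here.

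The promoters are shown because Slfn8 and Slfn9 move together and stand in a family known for interferon control. The search was for the core of the interferon-stimulated response element, GAAANNGAAA, on both strands of the 250 bases before a RefSeq start of each member (GRCm38.p6). For Slfn8, 2 promoters are listed, and only that printed below is described. The window of Slfn5 lies inside the GENCODE span given above, since the start used differs from the first base of that span. Capitals mark each match. For the genes on the minus strand, the sequence runs in the gene's own direction, 5′ to 3′.

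Slfn8, chr11:83020811-83021060, minus strand: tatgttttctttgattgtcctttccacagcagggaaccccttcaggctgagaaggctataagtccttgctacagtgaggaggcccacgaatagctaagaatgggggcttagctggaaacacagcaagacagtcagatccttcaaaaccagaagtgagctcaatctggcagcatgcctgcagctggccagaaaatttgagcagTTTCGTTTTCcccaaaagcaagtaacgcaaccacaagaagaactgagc

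Slfn9, chr11:82991831-82992080, minus strand: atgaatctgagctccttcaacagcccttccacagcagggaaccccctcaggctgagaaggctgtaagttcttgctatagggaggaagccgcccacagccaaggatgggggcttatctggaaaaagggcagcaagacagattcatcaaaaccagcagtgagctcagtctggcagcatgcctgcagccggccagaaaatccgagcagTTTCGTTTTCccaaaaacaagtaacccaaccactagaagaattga

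Slfn5, chr11:82951852-82952101, plus strand: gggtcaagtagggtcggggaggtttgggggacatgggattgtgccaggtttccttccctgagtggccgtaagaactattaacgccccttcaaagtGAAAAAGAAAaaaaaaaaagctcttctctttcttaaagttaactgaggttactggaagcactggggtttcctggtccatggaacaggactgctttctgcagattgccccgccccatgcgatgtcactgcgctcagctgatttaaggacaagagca

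The match in Slfn8 begins 48 bases before the start and that in Slfn9 begins 45 bases before it, both on the strand opposite to the gene and with the same letters. The 2 promoters were identical at 85.1% of 242 aligned bases, against 62.0% to 66.4% for the other pairs. In Slfn5 the match begins 155 bases before the start and runs into a stretch of adenines. The window of Slfn2 held no match. Of 32851 promoters in the table, 2.98% held this motif. The core of the binding sequence of PU.1, the myeloid transcription factor, searched as GAGGAAGT on both strands, was in none of the 4 windows and in 2.44% of all promoters. A match describes letters only and shows no binding.

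After filtering, 46876 cells were kept, and 1609 of them formed the microglia. Library totals ran from 54426522 to 70741809 UMIs. The class was named from microglial markers, of which 11 of 12 were detected in at least 20% of its cells. The genes with the largest folds over other clusters were Inpp5d, Tgfbr1, Ikzf1 and Runx1, none of them on the marker list. Cells were few and shallow, with 335, 272 and 262 microglia in the Sevoflurane libraries and 237, 293 and 210 in the Control libraries, and a median of 1975 UMIs per cell. Microglia made up 3.45% ± 0.254 of kept cells in Sevoflurane and 3.40% ± 0.342 in Control (SD, n = 3 each). Cells of unnamed clusters were 16.3% ± 3.00 in Sevoflurane and 8.02% ± 2.96 in Control. By Xist, which is transcribed from the silenced X of females, Sevoflurane 1 differed from the rest, at 1397 CPM (UMIs of a gene per 1000000 UMIs of the library or class) in that library and at most 1.21 CPM elsewhere. The Y-linked genes Ddx3y and Eif2s3y were at 0.282 and 0 CPM in Sevoflurane 1 and at least 44.1 and 123 CPM elsewhere. By these genes Sevoflurane 1 was female and the other libraries male, so sex was not balanced between the groups, and its part was not tested.

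Slfn8 was the Schlafen gene of the microglia. Over all kept cells, 634 of its 756 UMIs, 83.9%, lay in microglia, which were 3.43% of the cells. The Sevoflurane libraries held 47, 27 and 39 UMIs of Slfn8 in microglia, and the Control libraries 106, 299 and 116. Scaled to the UMIs of the class, these are 74.9, 50.3 and 64.3 CPM in Sevoflurane and 211, 468 and 289 CPM in Control. The groups did not overlap, and Control 2 was the highest of the 6 libraries. The mean was 63.2 ± 12.3 CPM in Sevoflurane and 323 ± 132 CPM in Control (SD, n = 3 each), lower by a factor of 5.11 with sevoflurane. The log2 fold change of edgeR, sevoflurane over control, was -2.40 (SE 0.26), -1.99 when Control 2 was left out and -2.53 when Sevoflurane 1 was left out.

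Slfn9, the neighbour and near copy of Slfn8, followed the same distribution at lower counts. Of its 91 UMIs in all kept cells, 61 lay in microglia, 67.0%. There were 3, 2 and 1 UMIs in the Sevoflurane libraries and 9, 37 and 9 in the Control libraries. In CPM these are 4.78, 3.73 and 1.65 in Sevoflurane and 17.9, 57.9 and 22.5 in Control. The groups did not overlap, and Control 2 was again the highest. Since 3 UMIs or fewer were counted in every Sevoflurane library, the ratio is given over the group. The pooled ratio, sevoflurane over control, was 0.095 (95% exact interval 0.033 to 0.220, counting error only), from 6 UMIs among 1770860 and 55 among 1541368. The fitted log2 fold change was -3.31 (SE 0.60). Control 2 held 37 of the 55 Control UMIs. Without it the pooled ratio was 0.170 (0.0552 to 0.447), and Slfn9 no longer passed the filter on low counts.

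Slfn5 and Slfn2 did not pass that filter in microglia, so no fit was made for them there. Slfn5 had 15, 5 and 1 UMIs in the Sevoflurane libraries and 0, 11 and 1 in the Control libraries. In Sevoflurane this is 11.6 ± 11.3 CPM and in Control 6.57 ± 9.30 CPM (SD, n = 3 each), with groups that overlap. Slfn2 had 4, 3 and 7 UMIs in Sevoflurane and 6, 6 and 7 in Control. Its mean was 7.83 ± 3.23 CPM in Sevoflurane and 12.9 ± 4.13 CPM in Control, and the groups overlapped. With finer clusters or with classes set from each cell's own markers, the sign of its difference turned, to 1.52 and 2.93 CPM higher in Sevoflurane. The count of 0 for Slfn5 in Control 1 allows up to 3 UMIs, which is 5.98 CPM. An antisense gene, Gm20234, overlaps Slfn2, and the strand setting of the counting is not given in the sources used here.

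**Figure D1:**
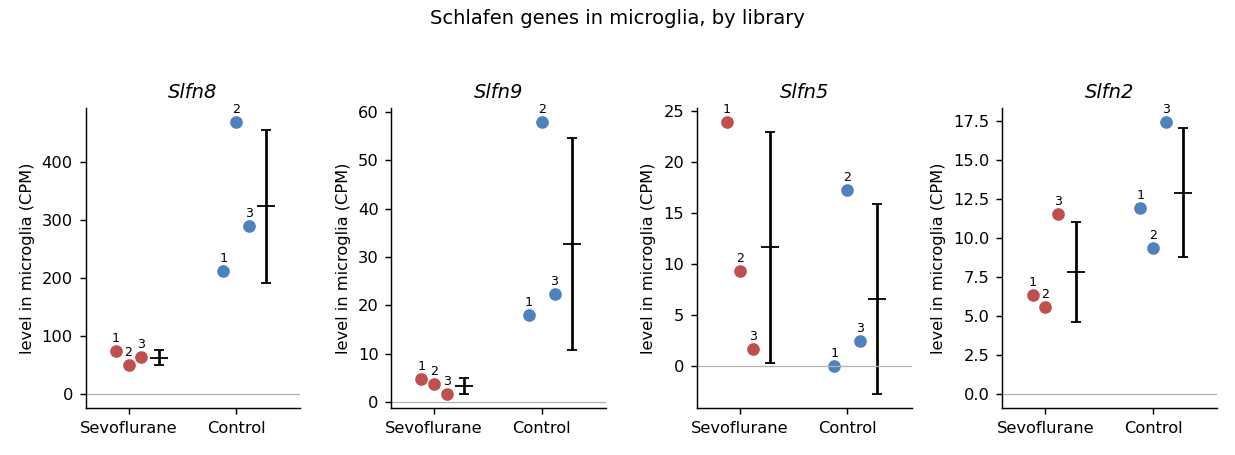
Level of each of the 4 Schlafen genes in microglia, in CPM of the class, by library. Points are libraries with their replicate numbers, and bars are the mean and SD of 3 libraries. For Slfn8 the Sevoflurane libraries lie at 50.3 to 74.9 CPM and the Control libraries at 211 to 468 CPM, while the groups overlap for Slfn5 and Slfn2.

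In microglia 9187 genes were tested, and 0.337% of them were called at a Benjamini-Hochberg (BH) adjusted p of 0.05 by the quasi-likelihood test of edgeR. In the direction of Slfn8 and Slfn9, lower with sevoflurane, 0.261% were called, which is 24 genes. Both members that passed the filter are among those 24, which follows from how they were selected, and nothing is read from it. The count of 31 calls in both directions fell to 9 without Control 3 and reached 49 without Sevoflurane 3.

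A smaller share of microglia had a Slfn8 UMI detected after sevoflurane, and cells with any had fewer on average. A lower level in all cells would by itself lower both measures at this depth. They therefore do not tell whether fewer cells expressed Slfn8. Cells with at least 1 UMI were 38 of 335, 25 of 272 and 34 of 262 in the Sevoflurane libraries, against 82 of 237, 173 of 293 and 78 of 210 in the Control libraries. These are 11.3% (95% exact binomial interval 8.15 to 15.2), 9.19% (6.04 to 13.3) and 12.98% (9.16 to 17.7) in Sevoflurane, against 34.6% (28.6 to 41.0), 59.0% (53.2 to 64.7) and 37.1% (30.6 to 44.1) in Control. The intervals cover counting error only, and no interval of a Sevoflurane library reaches one of a Control library. Slfn8 was selected by the counts of these same cells, so this is a description and no test. Among cells with any Slfn8 UMI, the mean was 1.24, 1.08 and 1.15 UMIs in Sevoflurane, against 1.29, 1.73 and 1.49 in Control. Cells with 3 or more UMIs numbered 1, 0 and 1 in Sevoflurane, against 3, 25 and 7 in Control.

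Depth per microglial cell was alike, with library medians of 1852 to 2244 UMIs in Sevoflurane and 1893 to 2126 in Control. When each cell was thinned to 1000 UMIs, the share with a Slfn8 UMI was 4.21% ± 0.730 in Sevoflurane and 24.1% ± 9.0 in Control (SD, n = 3 each). Thinning left out 3 to 18 shallower cells in a Sevoflurane library and 3 to 10 in a Control library. As a background of free RNA, neurons held a Slfn8 UMI in 0.150% ± 0.0652 of cells in Sevoflurane and 0.199% ± 0.0396 in Control, at a median depth of 9035 UMIs. Thinned to 1000 UMIs, the neuronal share was 0.0216% in both groups. The share of microglia lay above that background in all 6 libraries.

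**Figure D2:**
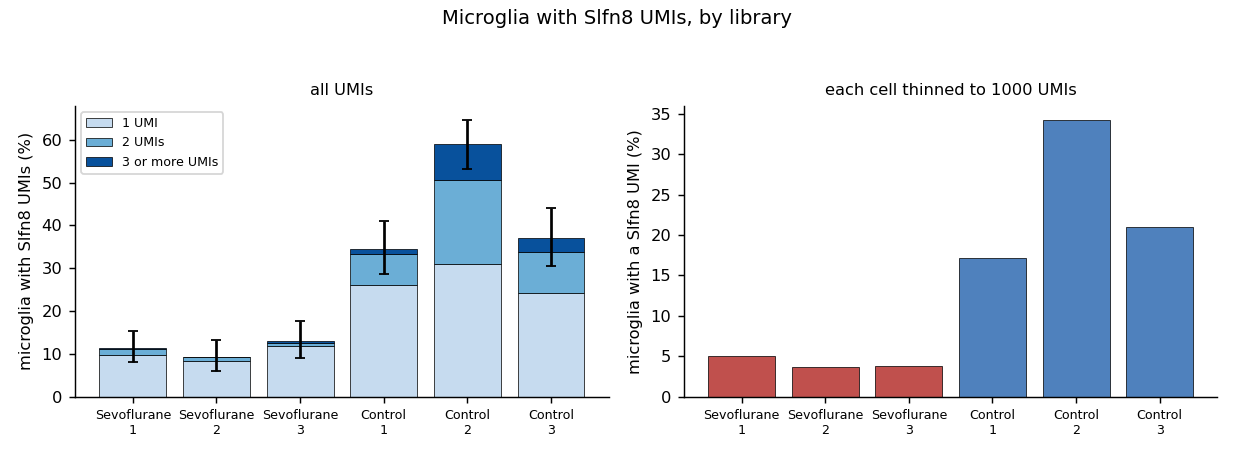
Share of microglia with Slfn8 UMIs by library. Left, all UMIs, with bars stacked by 1, 2, and 3 or more UMIs per cell and 95% exact binomial intervals of the total; right, the share after each cell was thinned to 1000 UMIs. Sevoflurane libraries reach 9.19% to 12.98% on the left and Control libraries 34.6% to 59.0%.

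In the Control libraries 28 of 50 microglia with a Slfn9 UMI also had a Slfn8 UMI. In the Sevoflurane libraries 0 of 6 did, which is too few to compare. Slfn9 gave 5.04% of the UMIs of both genes in Sevoflurane and 9.55% in Control, and the library values were 2.5% to 6.90% in Sevoflurane and 7.2% to 11.01% in Control. Counts were not divided by length, because a 3′ library tags each transcript once.

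Other immune cells can enter a microglial cluster, so their markers were counted in it. The markers of border macrophages, the macrophages of the meninges and vessels, summed to 6.37 to 231 CPM in the Sevoflurane libraries and 508 to 659 CPM in the Control libraries. Mrc1, the mannose receptor, and F13a1, a coagulation factor subunit, were 2 of 3 tested markers of that list and fell, with log2 fold changes of -2.36 (SE 0.39) and -2.94 (SE 0.44), at edgeR BH-adjusted p of 0.00826 and 0.00397. DESeq2 called neither, at adjusted p of 0.392 and 0.29955, and edgeR did not call Mrc1 without Control 3. Ttr, the transthyretin RNA of the choroid plexus, was at 1.65 to 9.56 CPM in Sevoflurane and 222 to 1447 CPM in Control. None of the 12 microglial markers was called, and their sum was 4501 to 5549 CPM in Sevoflurane and 4808 to 5764 CPM in Control. The neutrophil list summed to 267 to 435 CPM in Sevoflurane and 472 to 556 CPM in Control, nearly all of it Csf3r, with S100a8, Retnlg, Mmp9 and Ly6g at 0. T cell markers reached at most 25.5 CPM, natural killer cell markers at most 4.94 CPM, monocyte markers at most 18.8 CPM and B cell markers at most 93.9 CPM in any library.

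Cells with a UMI of a border macrophage marker were 0.896%, 2.21% and 4.96% of microglia in the Sevoflurane libraries and 4.64%, 6.83% and 10.0% in the Control libraries. In the cells without one, a split chosen after seeing the data, Slfn8 stood at 75.4, 49.6 and 65.7 CPM in Sevoflurane and 211, 464 and 302 CPM in Control. The log2 fold change was -2.39 (SE 0.25) there, close to that of all microglia, and Slfn9 stood at 4.81, 1.91 and 1.73 CPM in Sevoflurane and 19.0, 57.3 and 22.6 CPM in Control. In a stricter split, cells with at least 2 UMIs over the marker lists of all 6 other immune types, Csf3r included, were set aside. They were 14.3% to 27.1% of microglia in Sevoflurane and 34.2% to 39.5% in Control. The remaining cells held Slfn8 at 61.1, 42.0 and 66.0 CPM in Sevoflurane and 206, 493 and 279 CPM in Control, with a log2 fold change of -2.58 (SE 0.28). Cells of a border macrophage that happened to hold no such UMI remain in both splits. Choroid plexus cells numbered 0 in each Sevoflurane library and 59, 5 and 97 in the Control libraries. Ttr, like Slfn8, was lower in the Sevoflurane group. The Control libraries held Ttr at 464, 222 and 1447 CPM in microglia, and Slfn8 at 211, 468 and 289 CPM. Choroid plexus cells held 0 UMIs of Slfn8. Since choroid plexus cells were found in Control only, their part and that of sevoflurane cannot be told apart. The part of Ttr, as free RNA or otherwise, was not tested.

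**Figure D3:**
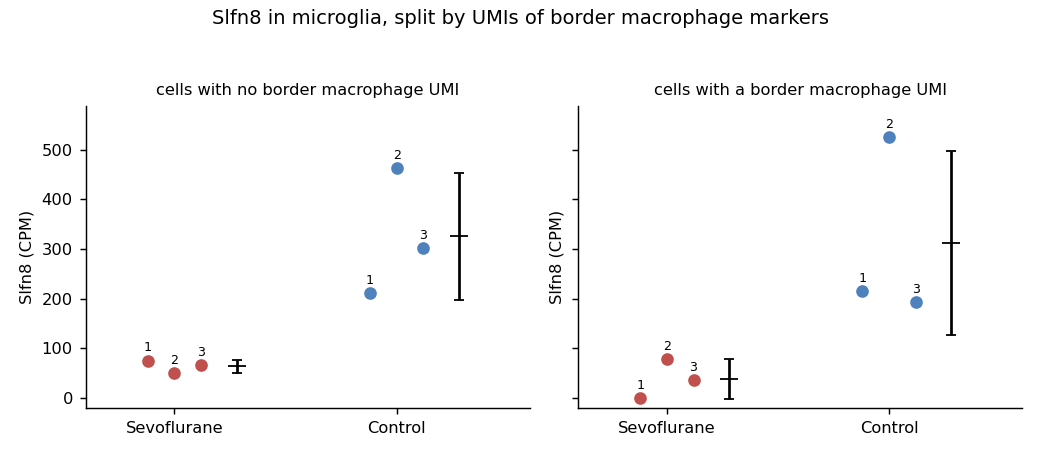
Slfn8 level in microglia without (left) and with (right) a UMI of a border macrophage marker, in CPM by library. Points are libraries with their replicate numbers, bars the mean and SD of 3 libraries. Without such UMIs the Sevoflurane libraries lie at 49.6 to 75.4 CPM and the Control libraries at 211 to 464 CPM; with them, 3 to 13 cells of a Sevoflurane library and 11 to 21 of a Control library remain.

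The members differed in where they were expressed. For Slfn8, the level over all 6 libraries was 193 ± 165 CPM in microglia (SD, n = 6), and the means of the other 6 tested classes ran from 3.03 ± 6.28 CPM in ependymal cells to 0.174 ± 0.0559 CPM in neurons. Between them, in falling order, stood endothelial cells, astrocytes, oligodendrocyte precursors and oligodendrocytes, at 2.25, 1.601, 1.17 and 0.890 CPM, and no neighbours among these 6 differed beyond their spread. For Slfn9, microglia stood at 18.1 ± 21.3 CPM and oligodendrocyte precursors came next, at 1.70 ± 2.24 CPM, a gap within the spread of the microglial libraries. The other 5 classes were at 0.356 CPM or less, and they do not differ beyond their spread.

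Slfn5 was endothelial. Endothelial cells, which line the vessels, held 783 of its 1096 UMIs, 71.4%, although they were 1.37% of the kept cells. The level there was 274 ± 39.1 CPM over 6 libraries, followed by 9.10 ± 9.66 CPM in microglia and 1.79 ± 1.02 CPM in astrocytes. Oligodendrocytes, ependymal cells, neurons and oligodendrocyte precursors followed at 1.48, 0.969, 0.666 and 0.40 CPM, and below endothelial cells no neighbours in the order differ beyond their spread. Slfn2 was highest in endothelial cells, at 16.4 ± 13.4 CPM, and in microglia, at 10.4 ± 4.34 CPM, which do not differ beyond their spread, and was at 0.987 CPM or less elsewhere.

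**Figure D4:**
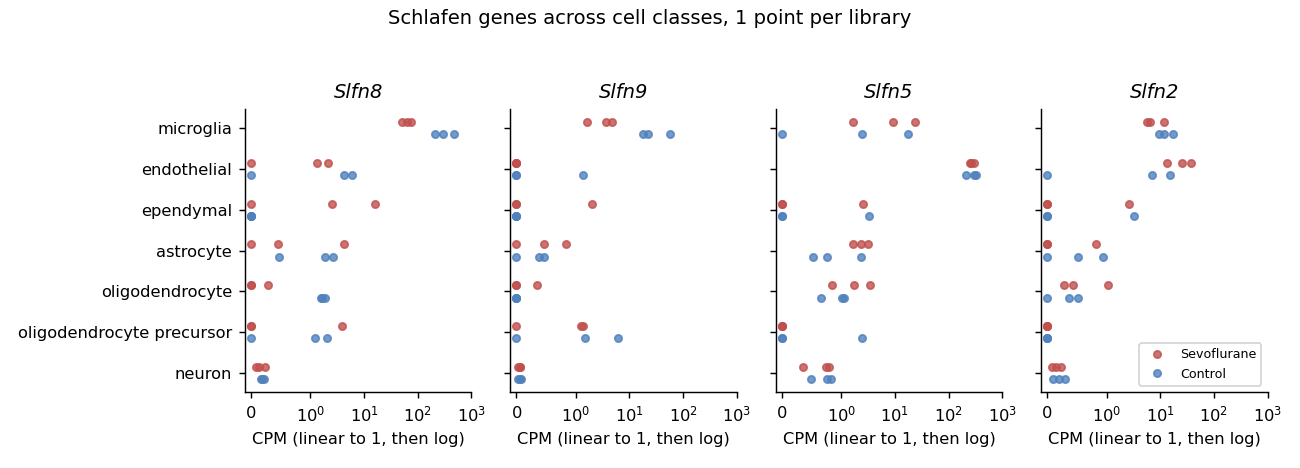
Level of each of the 4 Schlafen genes in the 7 tested cell classes, in CPM on an axis that is linear to 1 and logarithmic above. Each point is a library. Slfn8 and Slfn9 stand highest in microglia, at group means of 63.2 and 3.39 CPM in Sevoflurane and 323 and 32.8 CPM in Control, and Slfn5 in endothelial cells.

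Outside microglia, with doublets removed, no member was called in any of the other 6 tested classes. The shares of all tested genes called in these classes were 2.3% in endothelial cells, 2.79% in neurons, 1.99% in astrocytes, 0.613% in ependymal cells, 0.53% in oligodendrocytes and 0.778% in oligodendrocyte precursors. Only Slfn5 passed the filter in any of them, in endothelial cells and in neurons. With doublets kept, Slfn8 also passed in oligodendrocytes and was called lower, at -2.61 on the log2 scale (SE 0.48) and an edgeR BH-adjusted p of 0.0367. With doublets removed, it held 1 UMI there in Sevoflurane and 13 in Control. Whether doublets with microglia, where Slfn8 was selected, carried that call was not tested, and nothing is read from it. In endothelial cells Slfn5 had 54, 123 and 225 UMIs in the Sevoflurane libraries and 153, 109 and 119 in the Control libraries. These are 252, 265 and 300 CPM in Sevoflurane, inside the range of 212, 319 and 297 CPM in Control. The log2 fold change was 0.03 (SE 0.20, edgeR BH-adjusted p = 0.983), and its sign turned without Control 1, at -0.14. In neurons Slfn5 stood at 0.634 ± 0.236 CPM in Sevoflurane and 0.698 ± 0.175 CPM in Control (SD, n = 3 each), with a log2 fold change of -0.26 (SE 0.34, edgeR BH-adjusted p = 0.731).

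For the pairs of member and class below the filter with at least 20 UMIs, 5 in all, a two-sided exact permutation test was used, which cannot go below p = 0.1 with 3 libraries against 3. Slfn2 in endothelial cells had 8, 12 and 10 UMIs in Sevoflurane and 5, 0 and 6 in Control. That is 25.5 ± 11.97 CPM in Sevoflurane and 7.31 ± 7.50 CPM in Control, with 13.3 CPM in Sevoflurane 3 below the 14.99 CPM of Control 3 (exact permutation p = 0.2, BH-adjusted p = 0.5). The other 4 pairs had exact permutation p of 0.3 to 0.6, BH-adjusted p of 0.5 to 0.6. Slfn8 in oligodendrocytes had too few UMIs for a test, with 1, 0 and 0 in Sevoflurane and 5, 5 and 3 in Control. Its level there was at most 0.282 CPM in Sevoflurane and at most 1.84 CPM in Control, under the level of microglia in every library. These few UMIs do not tell whether Slfn8 differed between the groups in oligodendrocytes. Slfn8 in ependymal cells had 6, 0 and 1 UMIs in Sevoflurane and 0 in each Control library.

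Of the rest of the family, Slfn3, an intermediate-length member known from mouse T cells, was the only other one above trace. It was endothelial, with 69 of 86 UMIs there, at 27.95, 34.5 and 20.02 CPM in Sevoflurane and 16.6, 23.4 and 29.99 CPM in Control. Its log2 fold change was 0.25 (SE 0.39, edgeR BH-adjusted p = 0.864). In microglia Slfn3 had 3, 0 and 1 UMIs in Sevoflurane and 1, 1 and 0 in Control. Over all kept cells Slfn1, Slfn4 and Slfn14 had 2, 5 and 8 UMIs in 6 libraries. Slfnl1, on chromosome 4, had 40 UMIs, of which 35 lay in neurons and 0 in microglia.

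Genes within and on each side of the whole Schlafen cluster on chromosome 11, from Slfn5 to Slfn14, were described. Of 9 neighbours in the feature table, taken up to 5 genes to each side of the cluster and inside it, Ap2b1 was the only one tested in microglia. Ap2b1, an adaptor subunit of clathrin coats, starts at 83299024, beyond Slfn14, while Slfn8 ends at 83020810. Its values therefore do not tell whether the region of Slfn8 and Slfn9 moved as a whole. Ap2b1 stood at 212, 200 and 158 CPM in Sevoflurane and 183, 174 and 167 CPM in Control, with a log2 fold change of 0.08 (SE 0.16, edgeR BH-adjusted p = 0.937). Nle1, a ribosome assembly factor, was at 6.37 to 18.6 CPM in Sevoflurane and 6.26 to 11.96 CPM in Control. Gm20234, antisense to Slfn2, was at 5.59 to 11.2 CPM in Sevoflurane and 6.26 to 9.98 CPM in Control. Fndc8, Unc45b, Slfn5os, 1190001M18Rik and Gm48462 had no UMI in microglia. No neighbour was called in any of the 7 classes. Chromosome 11 held 4 of the 31 genes called in microglia, 12.9%, and 7.72% of the tested genes. Those 4 include Slfn8 and Slfn9, which were selected by their fall in this same contrast, so nothing is read from the share. The other calls there were Cdkl3 and Rai1.

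The interferon system was described from lists of receptors and signal transducers, of interferon-stimulated genes, and of factors that restrict or cleave RNA. In microglia 15 of 20 signalling genes passed the filter and were tested, and 0 of them were called. An unadjusted p under 0.05 was reached by 1 of them, and by 9.40% of all genes tested there. The median log2 fold change of the 15 was -0.10, against 0.00 for all tested genes. Of the 3 with the highest level, Irf2 stood at 340 ± 72.8 CPM in Sevoflurane and 346 ± 17.1 CPM in Control, and the kinase Jak1 at 309 ± 16.3 CPM in Sevoflurane and 246 ± 25.5 CPM in Control (SD, n = 3 each). Irf8, a transcription factor of the myeloid lineage, was at 153, 98.8 and 142 CPM in Sevoflurane and 179, 211 and 197 CPM in Control. Its log2 fold change was -0.61 (SE 0.18, edgeR BH-adjusted p = 0.217).

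Interferon-stimulated genes in microglia showed no call. Of the 48 genes of that list in the feature table, 19 passed the filter and were tested. Of these 19, 0 were called by edgeR, 0 reached an unadjusted p under 0.05, and the median log2 fold change was -0.03. Genes below the filter, which could not be tested, include Ifit1, Isg15 and Rsad2, at 3.36, 1.47 and 0 CPM over all 6 libraries. The tested genes therefore do not describe the whole list. The most abundant were Trim30a, a regulator of toll-like receptor signalling, B2m, the light chain of class I molecules, and Rnf213, a large ubiquitin ligase. Trim30a was at 126 ± 66.3 CPM in Sevoflurane and 102 ± 5.28 CPM in Control, B2m at 105 ± 36.4 CPM in Sevoflurane and 99.5 ± 23.5 CPM in Control, and Rnf213 at 68.6 ± 42.8 CPM in Sevoflurane and 66.7 ± 23.4 CPM in Control. Sevoflurane 1, the library that stood apart by Xist, held Trim30a at 201 CPM, against 74.6 and 102 CPM in Sevoflurane 2 and 3. In the same order Rnf213 was at 116, 33.6 and 56.0 CPM and B2m at 129, 63.4 and 124 CPM. The Sevoflurane means of Trim30a and Rnf213 thus lean on that library. The fitted log2 fold changes of all 19 lay between -0.68 (H2-D1) and 0.57 (Rtp4), and those of Slfn8 and Slfn9, at -2.40 and -3.31, lay outside that range. The members were selected on this value, so that this is a description.

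Among 11 tested factors that restrict or cleave RNA, 0 were called in microglia, 1 had an unadjusted p under 0.05, and the median was 0.01. That gene was Apobec3, a cytidine deaminase that restricts retroviruses, at 188, 112 and 97.2 CPM in Sevoflurane and 91.7, 39.1 and 24.9 CPM in Control. Its log2 fold change of 1.30 (SE 0.32) missed the threshold (edgeR BH-adjusted p = 0.0982). N4bp1, a ribonuclease induced by interferon, was at 92.8 ± 14.8 CPM in Sevoflurane and 94.9 ± 17.8 CPM in Control. Samhd1, which degrades the nucleotides that viruses need, was at 67.4 ± 7.96 CPM in Sevoflurane and 83.1 ± 4.07 CPM in Control.

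In endothelial cells, the class of Slfn5, 4 of 31 tested interferon-stimulated genes fell and 0 rose, where 1% of all tested genes were called lower and 1.3% higher, with a median log2 fold change of -0.58 against 0.00 for all tested genes. They were Iigp1, an immunity-related GTPase, at -2.31 (SE 0.48), Ifit1, which binds foreign RNA, at -1.75 (SE 0.40), Dtx3l, a ubiquitin ligase, at -1.64 (SE 0.42), and Sp100, a nuclear body protein, at -1.02 (SE 0.22). Their edgeR BH-adjusted p were 0.0163, 0.0291, 0.0461 and 0.0182. Samhd1 fell there too, as 1 of 10 tested RNA factors, by 1.19 on the log2 scale (SE 0.27, edgeR BH-adjusted p = 0.0237). Of 16 tested signalling genes 0 were called, with a median of -0.30 and 3 at an unadjusted p under 0.05, which 13.1% of all genes tested there reached. Without Control 3 or without Sevoflurane 3, 0 interferon-stimulated genes were called there, against 1 without Sevoflurane 2, 2 without Control 1 or Control 2 and 4 without Sevoflurane 1. These 4 are not the same genes, since the call of Dtx3l was lost without each of the 6 libraries in turn. The call of Samhd1 was lost without Control 1, Control 3, Sevoflurane 2 or Sevoflurane 3.

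**Figure D5:**
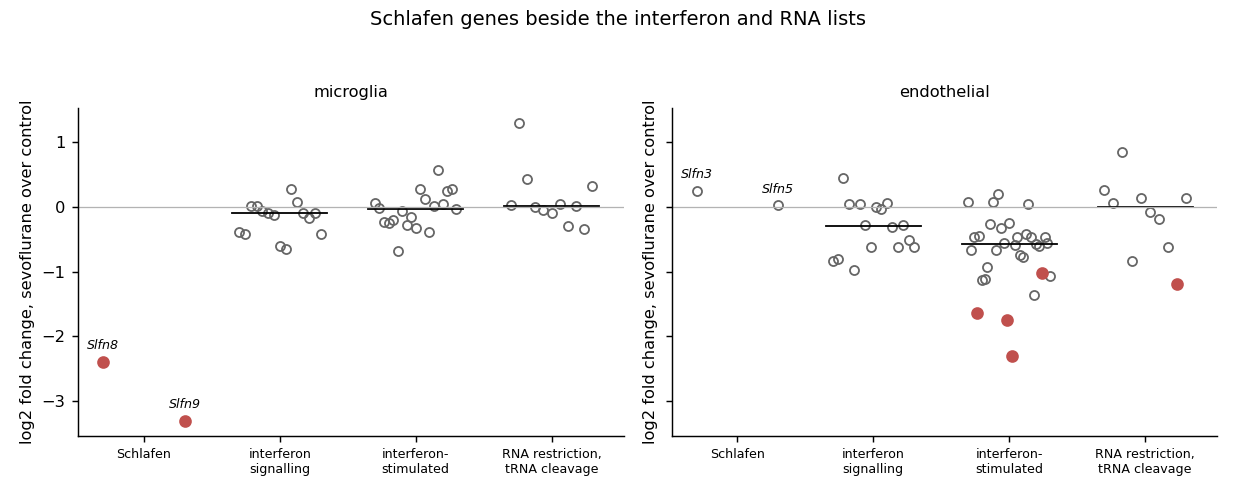
Log2 fold change, sevoflurane over control, of the tested Schlafen genes and the tested genes of 3 lists in microglia (left) and endothelial cells (right). Each point is a gene, filled where the BH-adjusted p was under 0.05, and bars are medians. In microglia Slfn8 and Slfn9 stand at -2.40 and -3.31 and the list medians at -0.10, -0.03 and 0.01, while in endothelial cells Slfn5 stands at 0.03 and the interferon-stimulated median at -0.58.

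Beyond these classes, 2 of 19 tested interferon-stimulated genes were called in astrocytes, against 1.99% of all genes, and 1 of 35 in neurons, where 2.79% of all genes were called. Of signalling genes, 1 of 19 was called in neurons. The neuronal counts are too small to set apart from that background. Eif2ak2, the kinase that senses double-stranded RNA, rose in astrocytes by a log2 fold change of 0.79 (SE 0.18, edgeR BH-adjusted p = 0.0369) and in neurons by 1.18 (SE 0.18, edgeR BH-adjusted p = 0.0255). Herc6, a ligase of the ISG15 modifier, rose in astrocytes by 0.69 (SE 0.16, edgeR BH-adjusted p = 0.0350). Irf3, a transcription factor upstream of interferon, fell in neurons by 0.62 on that scale (SE 0.13, edgeR BH-adjusted p = 0.0471). Each of these 4 calls was lost without at least 5 of the 6 libraries in turn.

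Genes most like the members were named by Pearson's r of log2(CPM + 1) over 42 points, the 7 classes in 6 libraries, among 12499 genes. The points share libraries and classes and include the microglial values by which Slfn8 and Slfn9 were selected, so that r is a description and nothing is read from the direction of these genes between the groups. For Slfn8 the highest were Arl11, a small GTPase of macrophages, at 0.94, Gm10384 and Clec5a, a lectin receptor of myeloid cells, at 0.93 each, and Abcc3, a transporter, and Irf8 at 0.92 each. None of these 5 is among the genes called in microglia. For Slfn9 they were Msr1, the macrophage scavenger receptor, at 0.86, Myl2, a myosin light chain, and Adora3, an adenosine receptor, at 0.85 each, and Fam102b and Lrrc25 at 0.84 each. Slfn8 and Slfn9 correlated at 0.82 over these points.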

How the data were processed

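Droplet single-cell RNA libraries of the hippocampus of old mice, 3 Sevoflurane and 3 Control, were analysed from the unnormalised UMI counts that the authors deposited. Per the file headers these come from Cell Ranger 6.1.1, and per the labels' protocols from the 3′ v3.1 kit of 10x Genomics. The submitters' processing notes name CASAVA 1.8, Cell Ranger and Seurat with no role. The genome build, annotation and strand setting are not given in the sources used here.

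The members, lists and tests were chosen with earlier results of these data known. Barcodes passed with 500 UMIs or more, 300 genes or more and a mitochondrial share up to 20%. Doublets found by Scrublet were removed at 0.8% per 1000 cells, and the rest were clustered in scanpy 1.11.5 (2000 variable genes, 30 components, Leiden resolution 1). The 35 clusters were named from markers of 19 cell types, and 4 stayed unnamed; the limits of that scoring were set with the clusters known. Class names are short for microglia-like and so on. No 2 libraries shared more than 0.333% of barcodes.

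UMIs were summed per library over each of 7 classes, those that reached 20 cells in all 6 libraries. Free RNA was not removed. Sums were compared with edgeR 4.0.16 (TMM, filterByExpr, quasi-likelihood test, BH adjustment over all tested genes, threshold 0.05), checked on simulated data first. Levels are CPM of the class sums. Shares carry exact Clopper-Pearson intervals, for counting error only, and the limit set by a count of 0 is 3 UMIs. Since nothing ties a library to its own mouse, p-values reflect only library-to-library spread, which may be technical. Alternatives were DESeq2 1.42.0, its size factors, no filter, a replicate block, each library left out, and other cell sets. The labels do not state that replicate numbers pair the libraries, and the main fits used no pairing. Named genes were the members and their family, called list genes, the 3 most abundant of each list in microglia, the genes most like Slfn8 and Slfn9, and the chromosomal neighbours. The values of 1 neighbour are not reported here. Sequences are from RefSeq (GRCm38.p6), found for all 4 members by symbol.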

Additional observations from a re-analysis of the deposited data

How the results depend on the processing

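The log2 fold change of Slfn8 in microglia was -2.64 to -1.99 when each library was left out in turn and -2.58 to -2.32 under the other settings. That of Slfn9 was -3.64 to -2.999 in 5 of these fits and -3.52 to -3.16 under the other settings; without Control 2, and without cells with other immune UMIs, it could not be fitted because it missed the filter. The CPM difference of Slfn2, -5.11, was -6.96 to -2.84 without each library, 1.52 at clustering resolution 2, 2.93 with classes from each cell's own markers and -1.14 without cells with a border macrophage UMI. That of Slfn5, 5.05, was -1.09 to 10.4 without each library. Slfn5 in endothelial cells turned to -0.0211 with doublets kept, and it ranged from -0.14 to 0.15 without each library, with -0.04 without Sevoflurane 3. In neurons it ranged from -0.45 to 0.0273, and Slfn3 in endothelial cells from -0.0127 to 0.54. With doublets kept, 1 member was called outside microglia, Slfn8 in oligodendrocytes, at -2.61 (SE 0.48, edgeR BH-adjusted p = 0.0367). Nothing is read from that call, since Slfn8 missed the filter there with doublets removed. Leaving out libraries called 0 in each case.

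Genes called without each library numbered 54 to 376 in astrocytes, 69 to 222 in endothelial cells, 15 to 79 in ependymal cells, 9 to 49 in microglia, 1 to 157 in neurons, 5 to 88 in oligodendrocytes and 4 to 64 in oligodendrocyte precursors, against 246, 179, 44, 31, 519, 66 and 73 with all libraries. With no filter on low counts there were 612 in astrocytes, 390 in endothelial cells, 97 in ependymal cells, 135 in microglia, 533 in oligodendrocytes and 151 in oligodendrocyte precursors. DESeq2 called 24 in ependymal cells, 1298 in neurons, 155 in oligodendrocytes and 122 in oligodendrocyte precursors. With doublets kept there were 163 in astrocytes, 301 in endothelial cells and 27 in oligodendrocyte precursors, and with classes from each cell's own markers 38 in the last. Microglia gave 19 calls without cells with other immune UMIs and 20 without cells with a border macrophage UMI, the setting chosen after seeing the data.

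The replicate block called 67 genes in ependymal cells, 30 in neurons, 27 in oligodendrocytes and 14 in oligodendrocyte precursors. It also called 2 interferon-stimulated genes and 0 RNA factors in endothelial cells, 1 RNA factor in microglia and 0 signalling genes in the 5 classes other than microglia and endothelial cells. Same-numbered libraries correlated at -0.196 to 0.0679 in their deviations from the group means.

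In endothelial cells, interferon-stimulated calls were 7 with no filter, 1 with DESeq2, 1 with classes from each cell's own markers and 0 to 4 without each library, signalling calls 2 with no filter, 2 with doublets kept and 0 to 1 without each library, and RNA factor calls 0 with DESeq2, 0 with classes from each cell's own markers and 0 to 1 without each library. In microglia the RNA factor count was 1 with no filter and 0 to 1 without each library. In the 5 further classes, signalling calls were 2 with DESeq2, no filter or resolution 2, 0 with doublets kept or at least 1000 UMIs, and 0 to 1 without each library; interferon-stimulated calls were 10 with no filter, 1 with doublets kept and 0 to 1 without each library; RNA factor calls were 1 with no filter. The share of microglia with a Slfn8 UMI was 11.2% in Sevoflurane and 43.6% in Control without thinning, and 9.04% and 38.0% in the same order at 1500 UMIs. Depth limited Slfn2 and Slfn5 in microglia, each with at most 15 UMIs in a library.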
